A study of Brassica oleracea with 12 samples.

Results

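The green margin of an ornamental kale leaf was compared with the red center of leaves at the same stage, across gene classes and in every library. The plant was cultivar JC007-2B of Brassica oleracea var. acephala, a leafy form of cabbage grown for its colored foliage. Its leaves are red at S1 and have a red middle within green edges from S2 on, and at S3 the margin (S3_S) and the center (S3_C) were sampled apart. Each group had 3 libraries of poly(A) RNA, so the comparison rests on 6 of the 12 libraries, and the whole-leaf libraries of S1 and S2, taken without veins, entered through the shared estimate of the spread. All libraries came from leaf of the same cultivar, and the labels name no treatment, mutation or plant age. Nothing in the labels tells if the 3 libraries of a zone were taken from different plants, so every p-value measures the spread between these libraries, which may be technical. A gene entry was tested when it reached at least 1 FPKM (fragments scaled by transcript length and library total) in at least 3 of the 12 libraries, which left 27272 of 45714 entries. Of the tested entries, 2195 fell into at least 1 of 46 gene classes built from the product descriptions, gene ontology terms and Arabidopsis identifiers in the deposited table.

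Red color in Brassica leaves comes from anthocyanins, vacuolar pigments made by the flavonoid pathway under a complex of MYB, bHLH and WD40 proteins. Green color comes from chlorophyll, which is made and broken down in the chloroplast by separate sets of enzymes. Leaf growth draws on wall-loosening enzymes, cellulose and pectin deposition, microtubules, ribosomes and auxin signaling. Older or shaded leaf tissue in turn takes apart its macromolecules by autophagy, glycosidases and amino acid breakdown, and exports the products.

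The libraries did not separate by zone. Pearson correlations of log2(FPKM + 1) across tested genes were 0.860 to 0.891 within the center, 0.853 to 0.904 within the margin and 0.731 to 0.912 between the zones. Margin replicate 3 was closest to S1 replicates 3 and 2 (0.912 and 0.899), above its 0.855 and 0.853 with margin replicates 1 and 2, whereas margin replicate 1 was closest to center replicate 1 (0.912) and margin replicate 2 to center replicate 3 (0.910). The 3 center libraries were each closest to a whole-leaf library, replicate 1 to S2 replicate 3 (0.952), replicate 2 to S2 replicate 2 (0.908) and replicate 3 to S1 replicate 1 (0.927). FPKM of the 6 libraries summed to 426981 to 444067, and 19.8% to 23.3% of entries were listed at 0. The table holds no read counts, so absolute depth is unknown. Each library is called here by its label, and whether any library was exchanged was not tested. Because margin replicate 3 stands apart, class values are given with and without it.

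**Figure D1:**
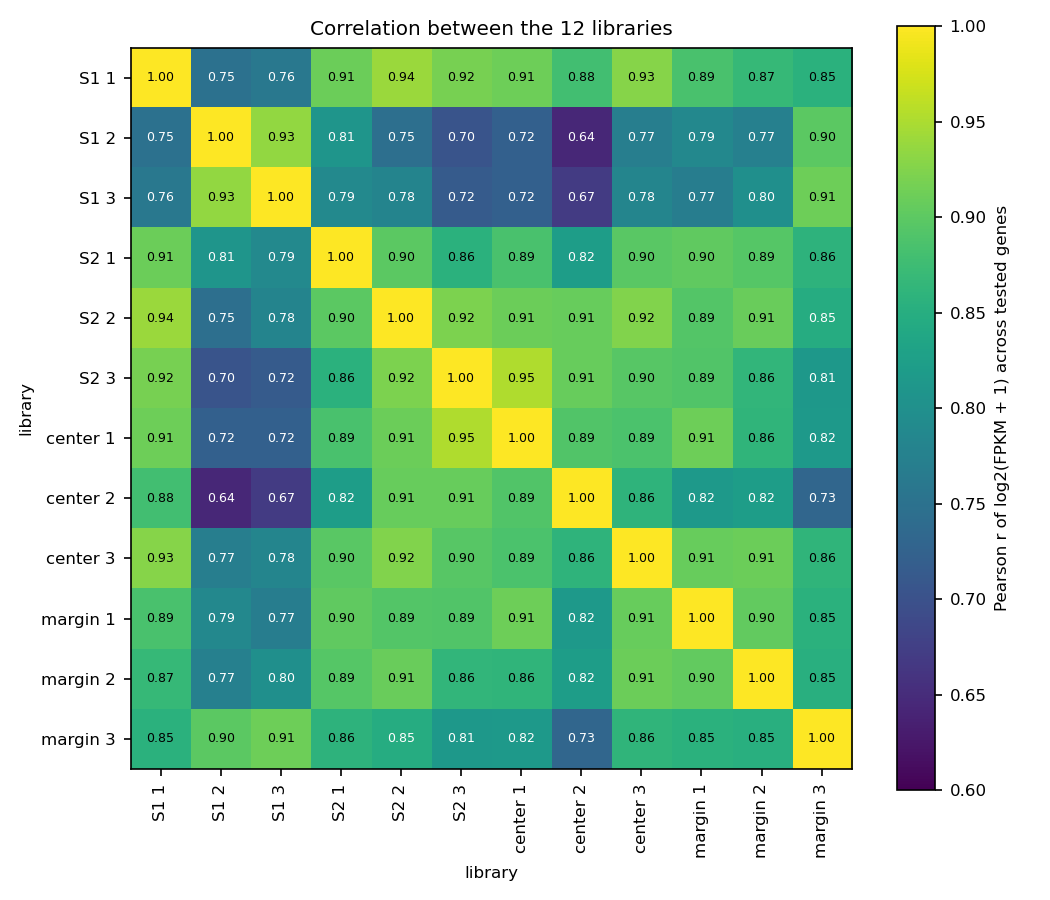
Pearson correlation of log2(FPKM + 1) across the 27272 tested genes for each pair of the 12 libraries, with darker squares for lower values. Margin replicate 3 correlated at 0.912 with S1 replicate 3 and at 0.731 to 0.862 with the center libraries, while margin replicates 1 and 2 correlated at 0.816 to 0.912 with the center.

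More genes lay higher in the margin than lower, and no gene passed the test at an adjusted p under 0.05 (limma, Benjamini-Hochberg over all tested genes). The smallest adjusted p was 0.0815. At an unadjusted p under 0.05, 2036 genes were higher in the margin (7.47%) and 789 lower (2.89%), and the replicate-blocked fit of the 6 S3 libraries gave 2865 and 1274. In 3232 genes (11.9%) every margin library lay above every center library, and in 1323 (4.85%) every margin library lay below. These shares are the background for each class below. The excess of higher genes depended on the scaling. The median difference over all genes was 0.18 on the log2 scale, and after median-of-ratios scaling it was 0.00, with 1269 genes higher (4.68%) and 1455 lower (5.36%) at an unadjusted p under 0.05 and 2305 (8.49%) and 2297 (8.46%) without overlap. Scaled and without margin replicate 3, 824 (3.12%) and 820 (3.11%) passed that p, and 3537 (13.4%) and 3382 (12.8%) were without overlap. A class median is therefore read against 0.18 as deposited and against 0.00 when scaled. Scaled class counts without overlap are read against 8.49% higher and 8.46% lower. Single libraries weighed on the counts. Without margin replicate 3, 1218 genes (4.61%) were higher and 479 (1.81%) lower at an unadjusted p under 0.05, and 4906 (18.6%) and 2002 (7.57%) were without overlap. At an unadjusted p under 0.05, 371 were higher and 301 lower without center replicate 2, and 4322 and 1157 without center replicate 3. Without overlap there were 3690 and 1659 without center replicate 2, and 9520 and 2858 without center replicate 3.

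The 12 largest differences with higher values in the margin are given here beginning with the genes of the cell wall. EXGT-A1, a xyloglucan endotransglucosylase/hydrolase that cuts and rejoins the xyloglucan tethers of the wall, had 29.8, 31.1 and 134 FPKM in the margin and 1.04, 0.618 and 12.0 in the center. Its zones did not overlap, and the log2 difference was 3.87 (SE 1.1, adjusted p = 0.476 by limma, the value shared by all 24 leading genes). XTH8, of the same enzyme family, had 3.74, 13.9 and 41.2 FPKM against 1.62, 0.222 and 3.04. ATEXPA3, an expansin that loosens walls without cutting them, had 10.6, 10.9 and 23.3 FPKM in the margin and 0.623, 0.450 and 3.59 in the center. In all 3 genes margin replicate 3 was the highest library and center replicate 3 the highest of the center, and the highest center value stayed under the lowest margin value.

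Enzymes of pectin, the gel of the wall, were also among the leading genes, but margin replicate 3 was not the highest library in all of them. The pectin lyase-like gene Bo5g141950 had 50.8, 55.8 and 166 FPKM in the margin and 4.20, 0.359 and 36.4 in the center. The pectate lyase gene Bo8g087210 had 8.52, 16.4 and 30.0 FPKM against 2.83, 0.330 and 3.04. Pectate lyases cleave the pectate backbone, and center replicate 2 was the lowest library for both genes. A pectinesterase gene, Bo8g093020, had 10.04, 20.8 and 20.04 FPKM in the margin and 4.38, 0.346 and 9.50 in the center, and the polygalacturonase gene Bo5g123630 had 9.56, 22.1 and 21.0 against 4.35, 1.73 and 8.84. Pectinesterase removes methyl groups from pectin and polygalacturonase cuts it. The peroxidase PRXR1 had 15.9, 24.8 and 228 FPKM in the margin and 5.5, 0.187 and 3.63 in the center, so its mean of 89.6 ± 120 (SD, n = 3) rested on margin replicate 3.

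The wall classes had positive medians. Of 84 tested pectin enzymes (of 234 listed), 15 were higher without overlap (17.9%, against 11.9% of all genes) and 1 lower, with a median difference of 0.56, 0.45 without margin replicate 3 and 0.48 when scaled. Of 53 genes for cellulose and the secondary wall, 15 were higher (28.3%) and 4 lower, with a median of 0.51, 0.40 and 0.35 in the same order. Of 24 xyloglucan enzymes and expansins, 4 were higher (16.7%, close to the background share) and none lower, with a median of 0.51, 0.81 and 0.42. The most abundant member of that class, the xyloglucan gene Bo7g114380, had 394, 2088 and 136 FPKM in the margin and 209, 408 and 920 in the center, and its zones overlapped. The most abundant pectin gene, Bo2g127040, which removes acetyl groups from pectin, also overlapped, with a margin mean of 1001 ± 91.3 FPKM beside a center mean of 1104 ± 275 (SD, n = 3).

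Cellulose synthases lay on both sides, more often higher in the margin. Of 24 tested genes annotated to cellulose synthase activity, 10 were higher without overlap (41.7%, against 11.9% of all genes). In the other direction 2 were lower (8.33%, against 4.85%), and when scaled 9 were higher and 2 lower. These counts were chosen after their values were seen. Bo2g166370, a cellulose synthase gene, had 43.5, 45.1 and 29.2 FPKM in the margin and 11.0, 2.72 and 24.0 in the center (log2 difference 1.93, SE 0.584, and 1.19 without center replicate 2). Bo2g006860, the most abundant gene of the class, had 134, 240 and 134 FPKM against 112, 50.6 and 127. The reverse held for the entry Bo4g178130;Bo4g178150;Bo4g178160;Bo4g178170, which joins 4 gene models annotated as cellulose synthase, with 0.930, 0.841 and 1.86 FPKM in the margin and 11.6, 33.7 and 2.98 in the center. Lower margin values were also found in genes of the class with other annotations. Bo3g170830, annotated as a glucuronosyltransferase of xylan synthesis, had 0.383, 0.612 and 0.185 FPKM against 4.11, 11.6 and 2.75, and ELI3-2, named for its activation by elicitors, had 0.378, 0.0757 and 0.112 against 0.684, 18.9 and 2.78.

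Genes of the microtubules, which guide cellulose deposition and form the spindle and phragmoplast, had the largest share above the background among the classes of 20 or more members described here. Of 115 tested, 37 were higher in the margin without overlap (32.2%) and 2 lower, and the median was 0.50, 0.37 without margin replicate 3 and 0.36 when scaled. In 75 of them (65.2%, against 29.8% of all genes) the margin exceeded the center of the same replicate number in all 3 pairs. The labels do not say that these numbers pair the zones. TUB6, a beta-tubulin, had 70.7, 111 and 120 FPKM in the margin and 39.8, 10.7 and 62.3 in the center (log2 difference 1.66, SE 0.565, and 0.96 without center replicate 2). Bo7g100800, annotated as a microtubule motor, had 10.8, 13.2 and 27.4 FPKM against 3.68, 1.57 and 9.48. Bo3g013820, an alpha-tubulin and the most abundant gene of the class, had 90.7, 166 and 103 FPKM against 69.5, 69.3 and 91.3, and margin replicate 1 lay within the center's range. On the other side, Bo1g031780, annotated to spindle organization, had 1.98, 1.43 and 1.38 FPKM in the margin and 14.3, 14.6 and 6.19 in the center.

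**Figure D2:**
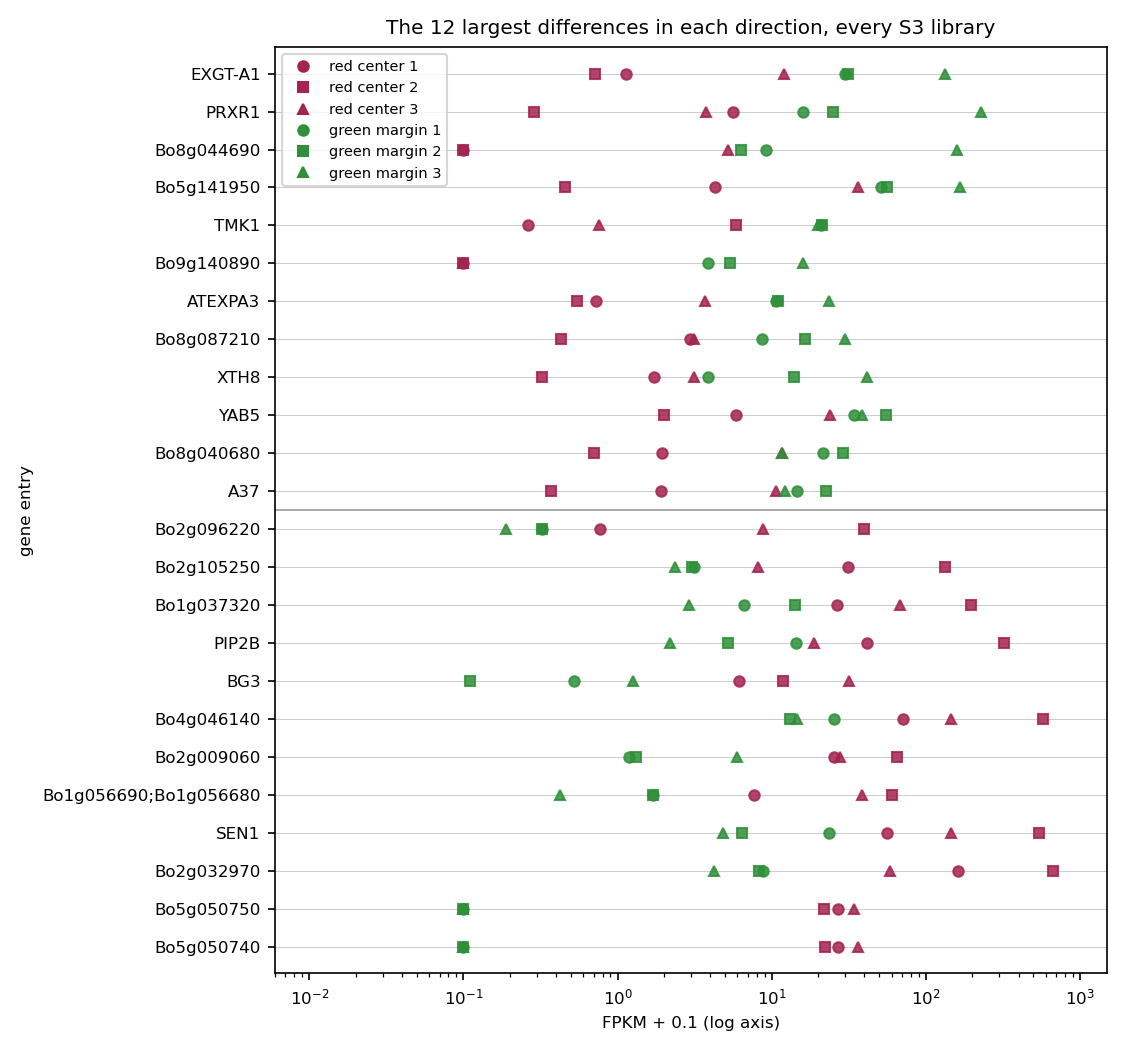
FPKM plus 0.1 on a log axis for the 12 largest differences in each direction, with 1 point per library, green for the margin, red for the center, and circle, square and triangle for replicates 1, 2 and 3. Center replicate 2 lay at or near the low end of most genes in the upper part and at the high end of most genes in the lower part. Margin replicate 3 was the highest library in genes such as PRXR1 (228 FPKM) and EXGT-A1 (134 FPKM).

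Genes for protein synthesis had positive median differences. Of 420 tested ribosomal proteins, the structural parts of cytosolic and organelle ribosomes, 76 were higher without overlap (18.1%) and 5 lower. Their median was 0.54, 0.39 without margin replicate 3 and 0.33 when scaled, and 376 of the 420 had a positive difference (89.5%, against 65.5% of all genes, and 80.0% against 50.2% when scaled). Of 94 genes for ribosome biogenesis, which process ribosomal RNA and assemble subunits, 22 were higher (23.4%) and 1 lower, with a median of 0.68, 0.52 and 0.47. Bo4g019650, a ribonuclease P family gene, had 13.2, 17.5 and 17.3 FPKM in the margin and 5.64, 3.89 and 11.1 in the center. Bo8g004190, a nucleolar GTP-binding protein, had 9.11, 9.61 and 14.7 FPKM against 4.31, 0.842 and 7.78. In both genes the zones did not overlap and center replicate 3 was the nearest to the margin. Bo7g089190, a ribosomal protein gene annotated to 5S rRNA binding, had 10.8, 10.4 and 19.2 FPKM against 2.52, 0.955 and 7.91. Bo3g093930, of the large subunit, lay the other way at 4.13, 2.95 and 3.76 FPKM in the margin and 18.2, 7.69 and 39.4 in the center. The most abundant ribosomal protein gene, Bo1g047930, overlapped at 227, 301 and 387 FPKM against 141, 120 and 251. So did the most abundant entry of the biogenesis class, the V-type ATPase subunit Bo7g117020, whose annotated role is proton pumping.

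The order within the zones was the same in these classes. Relative to the center mean, the ribosomal protein median was -0.02, -0.39 and 0.42 in center replicates 1 to 3 and 0.35, 0.40 and 0.84 in margin replicates 1 to 3. Center replicate 3 thus lay beside margin replicates 1 and 2, and margin replicate 3 lay above all. S1 replicates 2 and 3, from whole red leaves, stood at 1.38 and 1.75. The same 2 libraries stood at 1.02 and 1.21 for pectin enzymes, where margin replicate 3 was at 1.23, and at 1.52 and 1.40 for wax and cutin genes, where margin replicate 3 was at 1.45. Margin replicates 1 and 2 were at 0.33 and 0.38 for wax and cutin.

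**Figure D3:**
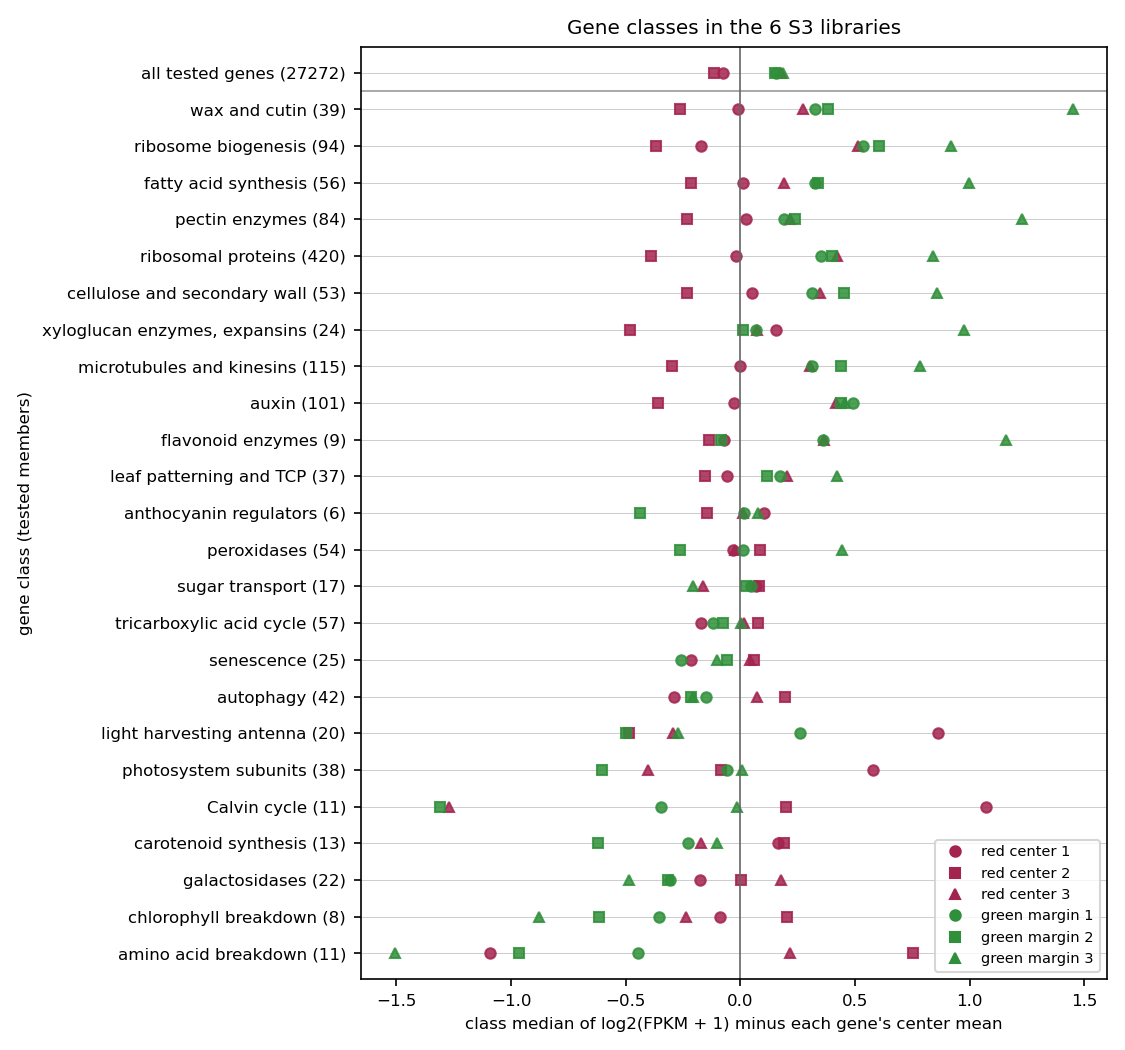
Median over the tested members of each class of log2(FPKM + 1) minus the gene's center mean, with 1 point for each of the 6 S3 libraries (green margin, red center). For ribosomal proteins the center libraries lie at -0.02, -0.39 and 0.42 and the margin libraries at 0.35, 0.40 and 0.84, so center replicate 3 lies beside margin replicates 1 and 2.

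Lipid genes shared this pattern. Of 56 genes for fatty acid synthesis, 12 were higher in the margin without overlap (21.4%) and none lower, with a median of 0.56, 0.37 without margin replicate 3 and 0.38 when scaled, where 10 were higher and 1 lower. Bo3g032140, annotated as acetyl-CoA carboxylase, the entry step of the pathway, had 11.8, 11.5 and 20.3 FPKM in the margin and 5.01, 2 and 9.75 in the center. Bo7g065710, annotated as an acyltransferase of fatty acid synthesis, had 10.5, 11.9 and 26.6 FPKM against 4.41, 4.11 and 7.23. Bo5g009040, an acyl-carrier-protein hydrolase that releases the finished fatty acid, had 8.36, 14.4 and 11.9 FPKM against 7.04, 4 and 6.2. Of 39 genes for wax and cutin, the coating of the epidermis, 3 were higher without overlap (7.69%, under the background share) although the median was 0.69, and it was 0.32 without margin replicate 3. CER1, an enzyme of wax alkane synthesis and a marker of the epidermis, had 41.5, 36.4 and 225 FPKM in the margin and 31.3, 5.37 and 47.8 in the center, so the zones overlapped and margin replicate 3 was far above the rest.

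Margin replicate 3 did not stand out in auxin or leaf patterning genes. Its median difference from the mean of margin replicates 1 and 2 was 0.05 and 0.09. It was 0.48 for ribosomal proteins and 0.41 for microtubules. Of 101 tested auxin genes, 22 were higher in the margin without overlap (21.8%) and 4 lower. Their median was 0.46, 0.50 without margin replicate 3 and 0.29 when scaled. The margin libraries stood at 0.49, 0.44 and 0.45 relative to the center mean, and the center libraries at -0.03, -0.36 and 0.42. Bo8g115680, annotated as an auxin-responsive protein, had 72.7, 81.0 and 93.6 FPKM in the margin and 21.0, 3.85 and 47.7 in the center (log2 difference 2.26, SE 0.758, and 1.34 without center replicate 2). Bo8g002800, with the same annotation, had 16.9, 29.1 and 26.5 FPKM against 2.57, 2.78 and 10.3, and Bo5g004400 had 11.6, 7.95 and 19.1 against 3.34, 0.902 and 7.36. The zones of these 3 genes did not overlap. TMK1, a receptor-like kinase known in Arabidopsis for auxin signaling at the cell surface, had 20.9, 21.0 and 19.9 FPKM in the margin, the most even values of the leading genes, and 0.164, 5.77 and 0.653 in the center (log2 difference 3.20, SE 0.991). The most abundant auxin-responsive gene, Bo5g093110, overlapped, with 276, 357 and 139 FPKM in the margin and 218, 109 and 331 in the center.

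Among 37 genes for leaf patterning and development, 9 were higher in the margin without overlap (24.3%) and none lower, with a median of 0.29, and when scaled 7 were higher and 1 lower with a median of 0.06. YAB5, a YABBY factor of the lower leaf side and blade outgrowth, had 34.0, 54.7 and 38.3 FPKM in the margin and 5.79, 1.91 and 24.0 in the center (log2 difference 2.43, SE 0.843). The TCP factor gene Bo2g009040 had 46.4, 20.8 and 27.1 FPKM against 10.9, 0 and 18.4. ER, the ERECTA receptor kinase of organ growth, had 3.27, 4.45 and 9.35 FPKM against 1.04, 0.747 and 3.18. The zones of all 3 genes were separate, by the least in ER, whose highest center value was near its lowest margin value. YAB3, a YABBY factor named after its values were seen, overlapped. It had 9.72, 6.40 and 7.81 FPKM in the margin and 9.56, 6.43 and 9.22 in the center. The most abundant gene of the class, the ferritin ATFER1, is an iron store annotated to leaf development, and overlapped, with 134, 220 and 761 FPKM in the margin and 200, 382 and 402 in the center.

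Other leading genes of the margin had various roles. Bo8g044690, a cysteine proteinase inhibitor, had 9.08, 6.20 and 160 FPKM in the margin and 0, 0 and 5.14 in the center, so its mean rested on margin replicate 3. The histone H2A gene Bo9g140890, a packaging protein of chromatin, stood at 3.76, 5.26 and 15.9 FPKM in the 3 margin libraries, and all 3 center libraries listed it at 0. With a pseudocount of 0.1 in place of 1 its adjusted p was 0.0274 by limma, and with the replicate block in the 6 S3 libraries it was 0.279. A37, a gene of vitamin B6 synthesis, had 14.5, 22.3 and 12.2 FPKM against 1.81, 0.271 and 10.6, and the glycosyltransferase gene Bo8g040680 had 21.5, 29.1 and 11.6 against 1.83, 0.6 and 11.6. For Bo8g040680 margin replicate 3 and center replicate 3 were equal to 3 digits, the closest approach among the leading genes. Without margin replicate 3, the plastocyanin Bo8g070090, annotated as a copper protein of electron transport, and the phospholipase NPC3 joined the largest differences. Bo8g070090 had 117, 149 and 12.7 FPKM in the margin and 8.29, 19.7 and 15 in the center, and NPC3 had 19.4, 43.8 and 2.59 against 2.40, 3.59 and 3.41. In both, margin replicate 3 lay in the center's range. A ubiquitin entry, UBQ11, showed the reverse, listed at 0 in margin replicate 1, with 3.73 and 131 FPKM in margin replicates 2 and 3 and 62.6, 99.7 and 111 in the center.

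The largest differences with higher values in the center are given here beginning with enzymes that act on galactose sugars and with SEN1. The beta-galactosidase Bo2g032970, an enzyme that frees galactose from wall and other glycans, had 162, 665 and 58.2 FPKM in the center and 8.65, 8.15 and 4.11 in the margin (log2 difference -4.60, SE 1.90). SEN1, a gene induced in Arabidopsis by darkness and during senescence, had 55.9, 543 and 145 FPKM in the center and 23.6, 6.34 and 4.70 in the margin. The alpha-galactosidase Bo2g009060, of the enzymes that act on raffinose sugars and galactolipids, had 25.2, 65.3 and 27.9 FPKM in the center and 1.08, 1.22 and 5.87 in the margin (log2 difference -3.54, SE 0.857). Center replicate 2 was the highest library of each, and without it the log2 differences were -3.68, -3.17 and -3.12. Bo1g037320, a UDP-glucose 4-epimerase that converts galactose sugars, had 26.4, 197 and 68.0 FPKM in the center and 6.5, 14 and 2.79 in the margin.

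Of 22 tested galactosidases, 5 were lower in the margin without overlap (22.7%, against 4.85% of all genes) and 3 higher (13.6%), with a median of -0.38, -0.30 without margin replicate 3 and -0.61 when scaled. The most abundant, Bo3g019600, had 1884, 3821 and 2441 FPKM in the center and 1590, 1298 and 121 in the margin, so the zones were separate and margin replicate 3 was the lowest by far. Bo2g165890 had 20.8, 94.4 and 62.7 FPKM in the center and 16.0, 18.5 and 6.38 in the margin. Among sugar transporters, 1 of 17 was higher without overlap and 2 were lower (against 11.9% and 4.85% of all genes), with a median of -0.02. Bo6g092910, annotated as a sucrose transporter, had 23.6, 57.0 and 21.0 FPKM in the center and 4.60, 3.94 and 10.8 in the margin. The most abundant, the SWEET gene Bo8g077260, overlapped, with 52.4, 30.0 and 75.1 FPKM in the center and 50.8, 44.8 and 101 in the margin.

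Other leading genes of the center had various annotations. The pyruvate, phosphate dikinase entry Bo1g056690;Bo1g056680, which names 2 gene models, had 7.58, 60.5 and 38.6 FPKM in the center and 1.60, 1.59 and 0.326 in the margin (log2 difference -3.73, SE 1.16). The enzyme is known in senescing leaves for making transport amino acids. The copper amine oxidase Bo2g105250 had 31.0, 132 and 8 FPKM against 3.04, 2.95 and 2.28, and the aquaporin PIP2B had 41.7, 320 and 18.7 against 14.3, 5.13 and 2.09. BG3, a beta-1,3-glucanase of defense and wall turnover, had 6.01, 11.8 and 31.8 FPKM in the center and 0.425, 0.00987 and 1.15 in the margin, and the log2 difference was -3.30 (SE 0.668, limma adjusted p = 0.476). The dehalogenase-like hydrolase Bo4g046140 had 70.7, 576 and 145 FPKM against 25.2, 13.1 and 14.4, and the glyoxalase family gene Bo2g096220 had 0.669, 39.5 and 8.73 against 0.225, 0.226 and 0.0903. Center replicate 2 was the highest library of each of these genes except BG3.

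The methyltransferase entries Bo5g050740 and Bo5g050750, annotated to steroid synthesis, were listed at 0 in all 3 margin libraries. In the center they had 26.7, 22.1 and 36.4 FPKM and 26.9, 21.9 and 34.2 FPKM. They were also listed at 0 in S1 replicate 3 and in S2 replicates 2 and 3. Their values were nearly equal in S1 replicate 2 and S2 replicate 1. In S1 replicate 1 they differed, with 38.0 FPKM for Bo5g050740 and 0 for Bo5g050750. Whether reads were split between them was not tested, and they are reported as uncertain. In a fit of the 6 S3 libraries alone, where the spread of S1 and S2 does not enter, the adjusted p of each was 0.00290 by limma. With the replicate block in the same 6 libraries it was 0.0582.

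Classes of turnover were mostly lower in the margin by modest steps. Autophagy genes build the vesicles that carry cell contents to the vacuole. Of 42 tested, 4 were lower without overlap (9.52%, against 4.85% of all genes) and none higher. Their median was -0.16, -0.14 without margin replicate 3 and -0.33 when scaled. Scaled, 12 were lower without overlap, beside 8.46% of all genes. APG12, a ubiquitin-like protein of vesicle growth, had 26.8, 75.4 and 28.5 FPKM in the center and 13.5, 18.6 and 9.04 in the margin (log2 difference -1.49, SE 0.480). The autophagy-related genes Bo2g104590 and Bo8g044730 had 84.1, 184 and 110 against 45.1, 63.5 and 44.4 FPKM, and 99.0, 171 and 104 against 80.8, 88.1 and 71.9 FPKM. Their zones were separate and center replicate 2 was the highest. The most abundant gene, Bo1g039240, overlapped at 111, 132 and 104 FPKM against 97.1, 76.8 and 105.

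Of 11 genes for amino acid breakdown, 1 was lower without overlap (9.09%), the tyrosine transaminase family gene Bo2g042260, with 20.5, 134 and 37.2 FPKM in the center and 14.4, 11.5 and 6.19 in the margin. The class median was -0.94, the lowest of the classes described, and -0.64 without margin replicate 3, but center replicate 1 stood at -1.09, beside the margin. Of 57 genes of the tricarboxylic acid cycle, 6 were lower (10.5%) and 3 higher, with a median of -0.06. When scaled 11 were lower and 1 higher, with a median of -0.28. The shares over all genes were 4.85% lower and 11.9% higher, and 8.46% and 8.49% when scaled. The NADP isocitrate dehydrogenase Bo6g099590 had 263, 513 and 181 FPKM in the center and 115, 136 and 80.3 in the margin, and the citrate synthase entry Bo8g092880;Bo8g092900 had 8.06, 18.5 and 11.9 against 7.16, 6.51 and 5.41. The most abundant gene, the malate dehydrogenase Bo2g009460, overlapped at 744, 671 and 226 FPKM against 333, 229 and 226. Another malate dehydrogenase, Bo3g183840, lay the other way at 7.78, 6.53 and 11.5 FPKM in the center and 13.0, 12.9 and 25.8 in the margin.

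Genes annotated to senescence were mixed. Of 25 tested, 3 were lower in the margin without overlap (12.0%), SEN1 among them, and 2 higher (8%), with a median of -0.07. ALD1, which makes a defense signal from lysine, had 0.742, 5.91 and 19.8 FPKM in the center and 0.115, 0.406 and 0.131 in the margin, and HAI1, a phosphatase of abscisic acid signaling, had 0.974, 18.8 and 4.13 against 0.655, 0.294 and 0.709. COR78, a cold- and drought-induced gene and the most abundant of the class, was higher in the margin at 665, 897 and 515 FPKM against 438, 69.6 and 341. The zones of these genes were separate. Of 54 peroxidase-annotated genes, 7 were higher (13.0%) and 4 lower (7.41%), with a median of 0.01 that was -0.20 when scaled, and the most abundant, the catalase Bo7g061480, was lower at 1000.3, 1068 and 941 FPKM against 1727, 1862 and 1384.

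Center replicate 2 also weighed on the classes. Without it the median over all genes was 0.14, and the class medians were 0.36 for ribosomal proteins, 0.51 for ribosome biogenesis, 0.36 for microtubules, 0.43 for pectin enzymes, 0.37 for cellulose and the secondary wall, and 0.51 for xyloglucan enzymes and expansins. They were 0.42 for fatty acid synthesis, 0.56 for wax and cutin, 0.39 for auxin and 0.17 for leaf patterning. In the classes with negative medians they were -0.56 for amino acid breakdown, -0.26 for galactosidases, -0.05 for autophagy and -0.39 for chlorophyll breakdown. Each of these medians kept its sign, and those of ribosomal proteins, leaf patterning, amino acid breakdown and autophagy were smaller in size by over 1.5 times.

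**Figure D4:**
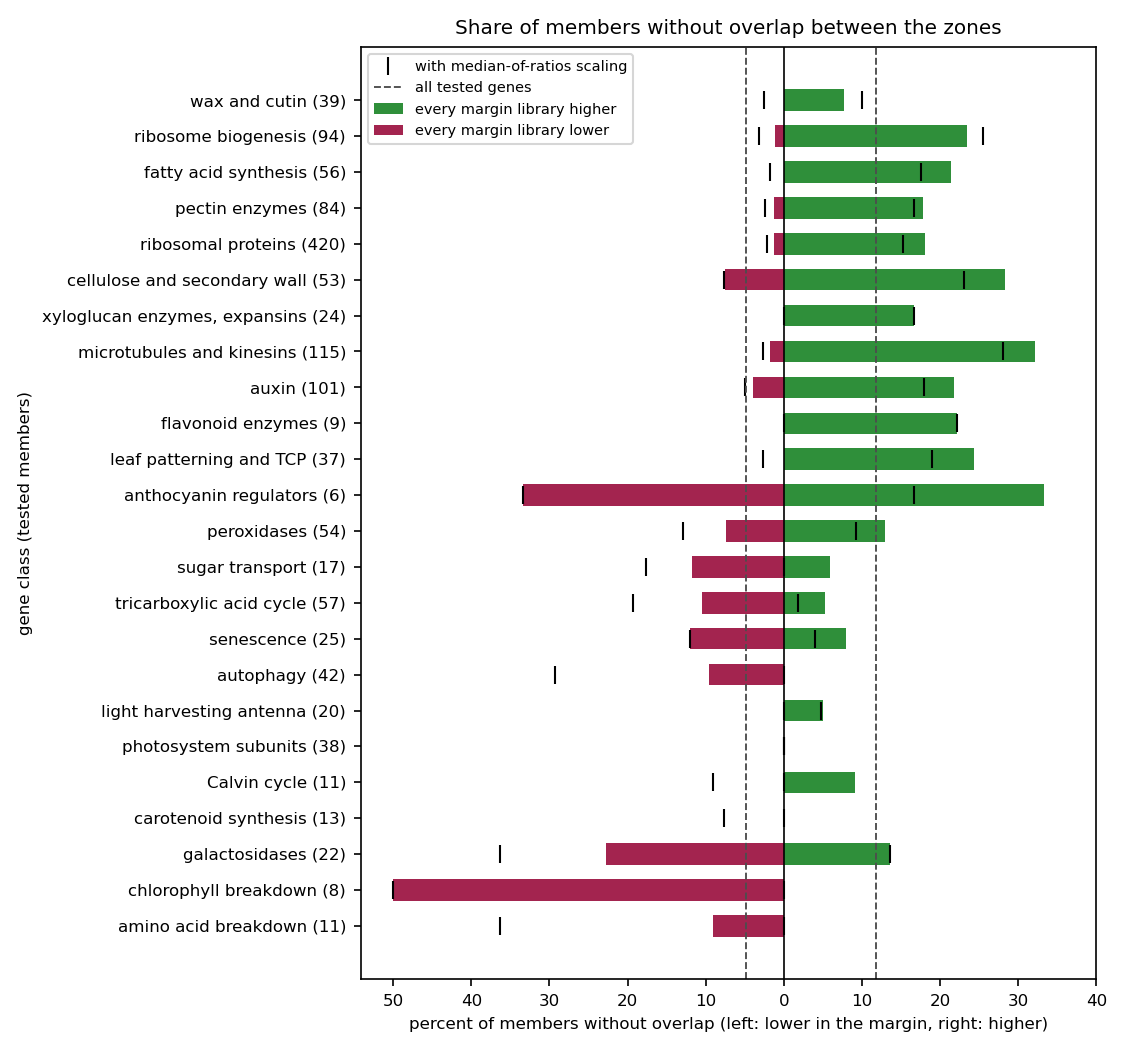
Percent of the tested members of each class whose margin libraries all lay above (green, to the right) or all below (red, to the left) the center libraries, with black ticks for the shares after median-of-ratios scaling and dashed lines for all tested genes (11.9% and 4.85%). Microtubule genes reach 32.2% higher and chlorophyll breakdown genes 50.0% lower, the latter being 4 of 8 members.

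Chlorophyll breakdown genes mostly had lower values in the green margin than in the red center, with 7 of 8 below 0 (87.5%, against 34.5% of all genes, and 87.5% against 49.8% when scaled). Of 11 listed genes 8 were tested, and of these 4 were lower without overlap and none higher, with a median of -0.56, -0.49 without margin replicate 3 and -0.72 when scaled. ACD1, the oxygenase that cleaves the ring of pheophorbide a, a product of chlorophyll, had 69.3, 132 and 62.7 FPKM in the center and 47.9, 30.4 and 24.2 in the margin (log2 difference -1.32, SE 0.684). NOL, a subunit of chlorophyll b reductase, had 17.2, 24.3 and 10.5 FPKM in the center and 9.94, 7.45 and 10.2 in the margin (log2 difference -0.79, SE 0.324, and -0.52 without center replicate 2), and margin replicate 3 came close to center replicate 3. Bo1g011360, an ABC1-type protein kinase gene that is annotated to chlorophyll breakdown and to anthocyanin regulation, had 44.0, 24.9 and 15.6 FPKM in the center and 13.5, 11.0 and 7.46 in the margin. The most abundant gene of the class, PSB29, is a photosystem II assembly factor, and overlapped at 164, 145 and 80.6 FPKM against 112, 82.0 and 124. Of 27 genes for chlorophyll synthesis, 2 were higher without overlap and none lower, with a median of 0.23 that was -0.01 when scaled. Carotenoid genes had 0 of 13 without overlap in either direction and a median of -0.37.

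Photosynthesis genes seldom separated the zones without overlap. Most photosystem subunits still had lower values in the margin, as deposited and when scaled. Among all genes 9402 of 27272 lay below 0 as deposited, and 13508 of 27142 when scaled. Of 38 photosystem subunits 0 were without overlap and the median was -0.25, of 20 light harvesting antenna genes 1 was higher and the median was -0.22, and of 11 Calvin cycle genes 1 was higher and the median was -0.30. Without margin replicate 3 these medians were -0.34, -0.19 and -0.93. The libraries of a zone differed among themselves by more. Relative to the center mean the Calvin cycle median was 1.07, 0.20 and -1.27 in center replicates 1 to 3 and -0.35, -1.31 and -0.02 in margin replicates 1 to 3, and the median over genes of the difference between libraries of the same number was -1.48, -1.34 and 1.16, with a change of sign in the third pair. The most abundant Calvin cycle entry, Bo4g137150;Bo4g137140;Bo4g137200, of the Rubisco small chain, had 2050, 700 and 319 FPKM in the center and 576, 247 and 1109 in the margin. The antenna gene Bo4g101180, of photosystem I, had 3213, 1074 and 1196 against 1631, 936 and 1005 FPKM, and PSBQ, of the oxygen-evolving complex, had 1917, 992 and 913 against 1245, 721 and 774. In each of these 3 entries center replicate 1 was the highest of the 6 libraries.

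The tested flavonoid and anthocyanin genes gave no order that matched the color of the zones, but they cover the pathway only in part. The flavonoid class held chalcone isomerase family genes, FLS2, TT7, UGT80B1, PII and CIP7. No tested member was described as chalcone synthase, dihydroflavonol reductase or anthocyanidin synthase. Of 20 listed flavonoid genes 9 were tested, 2 were higher in the green margin without overlap and none lower, with a median of 0.34, 0.04 without margin replicate 3, and -0.14 when also scaled. TT7, the flavonoid 3'-hydroxylase, had 1.46, 0.962 and 1.09 FPKM in the center and 1.36, 0.130 and 11.3 in the margin, where margin replicate 3 alone was high. The chalcone isomerase family gene Bo6g068550 had 0.591, 5.63 and 5.97 FPKM in the center and 1.15, 0.390 and 11.3 in the margin. Bo8g088480, of the same family, was higher in the margin without overlap at 6.31, 6.27 and 7.79 FPKM against 2.25, 2.71 and 4.06. The other such gene was CIP7, a regulator that binds the light-signaling repressor COP1 and is annotated to anthocyanin synthesis, with 18.7, 30.0 and 23.0 FPKM in the margin and 8.24, 4.12 and 15.2 in the center (log2 difference 1.42, SE 0.348). TT7 and Bo6g068550 were named after their values were seen.

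Of 8 listed anthocyanin regulators 6 were tested, 2 were higher in the margin without overlap and 2 lower. None of the 6 was described as a MYB protein. TT8, the bHLH partner of the anthocyanin complex, had 0.774, 0.9 and 2.35 FPKM in the center and 4.59, 0.188 and 5.83 in the margin, so the zones overlapped and margin replicate 2 was the lowest of all 6 libraries. SHW1, a light-response gene of seedlings, was lower in the margin at 7.30, 5.87 and 7.53 FPKM against 10.1, 13.0 and 8.01, as was Bo1g011360. ELP6 and ELO1, subunits of the Elongator complex, were higher at 4.42, 4.84 and 6.30 FPKM against 3.96, 1.91 and 4.38, and at 3.02, 2.95 and 3.23 against 1.71, 1.32 and 2.88. When scaled, 1 was higher and 2 lower. ARF10, an auxin response factor, overlapped at 14.2, 15.8 and 12.4 against 22.4, 22.0 and 11.5 FPKM. The class median was 0.08, and -0.11 when scaled.

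**Figure D5:**
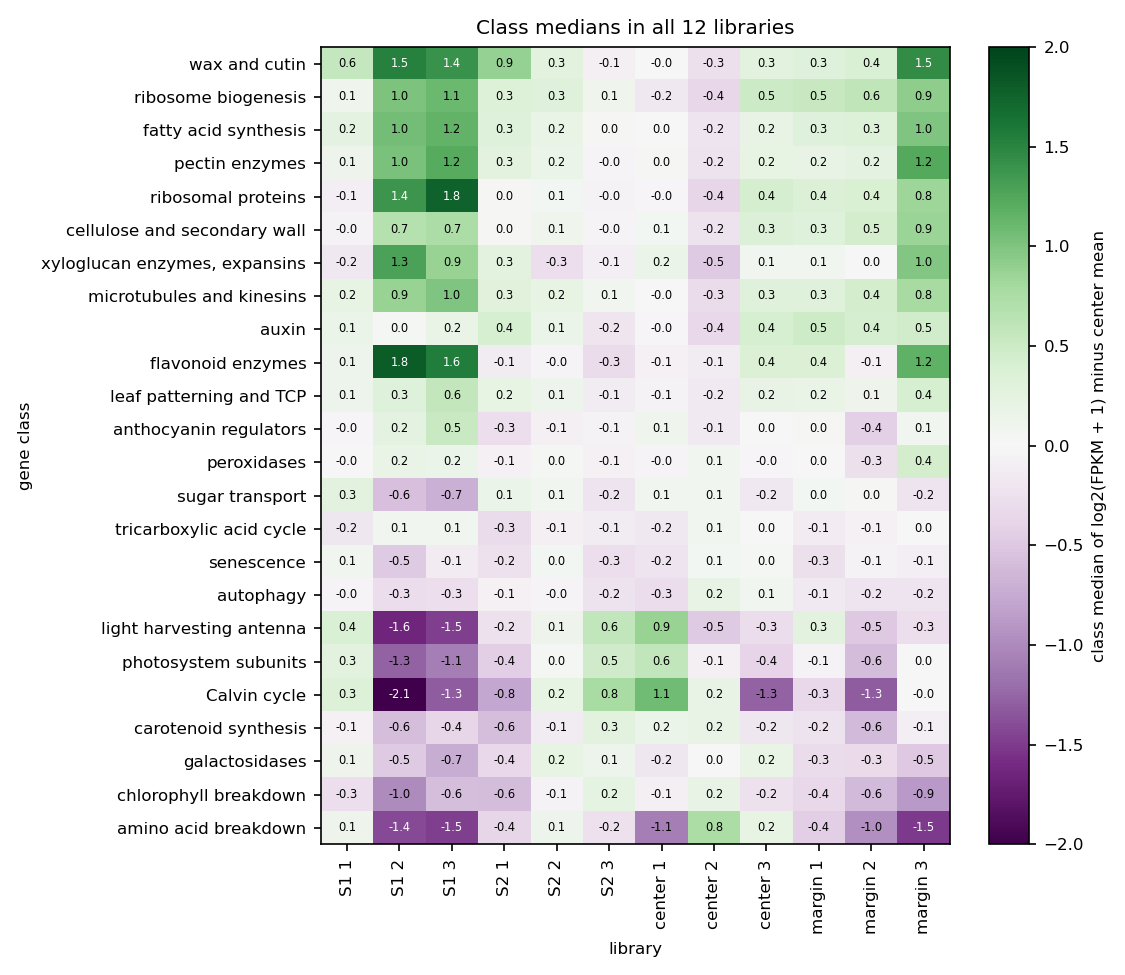
Class medians of log2(FPKM + 1) minus the gene's center mean in all 12 libraries, green above and purple below 0. Margin replicate 3 is close to S1 replicates 2 and 3 for wax and cutin (1.45 beside 1.52 and 1.40) and pectin enzymes (1.23 beside 1.02 and 1.21), and far from them for light harvesting antenna genes (-0.27 beside -1.63 and -1.47).

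Cell division genes lay close to the background once margin replicate 3 was left out. The medians were 0.34 for 68 DNA replication genes, 0.37 for 48 histone genes and 0.32 for 21 cyclins and cell cycle kinases, and without margin replicate 3 they were 0.16, 0.19 and 0.20, beside 0.16 for all genes. In these classes 5, 4 and 3 genes were higher without overlap (7.35%, 8.33% and 14.3%). For DNA replication margin replicate 3 stood at 0.84, near the 0.90 and 1.09 of S1 replicates 2 and 3, and margin replicates 1 and 2 at 0.03 and -0.003.

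Of 32 markers of leaf cell types listed for the check, 9 were tested, 3 were present below the filter and 20 had no matching Arabidopsis identifier, so the makeup of the samples can be checked only in part. PCNA1, a clamp of DNA replication, had 0.0992, 0.759 and 5.37 FPKM in the margin and 0.223, 0.210 and 0.401 in the center. The dividing-cell kinases CDC2B and CDKB2 had 0.599, 0.354 and 3.04 and 1.04, 0.469 and 2.74 FPKM in the margin, against 0.123 to 0.233 and 0.368 to 0.622 in the center. XCP1, a peptidase of forming xylem, had 0.903, 0.484 and 7.08 FPKM in the margin and 0.360, 0.396 and 0.454 in the center. In all 4 markers, as in CER1, margin replicate 3 was the highest, and S1 replicates 2 and 3 were high as well (9.10 and 12.2 FPKM for PCNA1, 5.67 and 2.87 for XCP1). The xylem cellulose synthases CESA4 and CESA8 had at most 3.12 and 2.03 FPKM in the margin, both in replicate 3, and at most 1.35 and 0.543 in the center. The cyclin CYC1 did not share this, with 19.2, 17.7 and 21.3 FPKM in the margin and 26.1, 27.8 and 18.7 in the center. The mesophyll carbonic anhydrase gene Bo5g155090 ranged from 3.66 to 593 FPKM in the center and from 0.180 to 311 in the margin. STM, of the shoot meristem, was at or near 0 in all 6 libraries. The part of cell makeup in the class differences was not tested. In bulk tissue fewer cells of a type and less RNA per cell cannot be told apart.

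Of the 46 classes, 24 were chosen for description. The other 22 had medians between -0.08 and 0.41. Their shares without overlap were 0% to 25.0% higher and 0% to 15.2% lower, the latter in jasmonate genes (against 4.85% of all genes). Heat shock proteins and chaperones, which fold other proteins, were the largest of these 22 classes. In that class 38 of 207 were higher (18.4%) and 6 lower (2.90%), with a median of 0.38 and a scaled median of 0.17. Lipid transfer proteins had 13 of 58 higher (22.4%) and 4 lower (6.90%), and receptor kinases 6 of 36 higher (16.7%) and 1 lower. Clock and light response genes had 2 of 50 higher and 4 lower with a median of -0.08. NAC, WRKY and MYB factors, which include regulators of senescence, defense and pigment, had 1 of 11, 0 of 12 and 0 of 10 higher and 0, 1 and 0 lower.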

How the data were processed

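The deposited table gives FPKM per gene entry in 12 libraries of poly(A) RNA, sequenced in pairs on an Illumina instrument per the labels' protocols. Per the submitters' processing notes the authors used HISAT2 2.0, StringTie 1.3.0 and Bowtie 0.12.2. Genome build and annotation were not given in the sources used here. FPKM carry no absolute depth. Low values put the S3 libraries at 0.664 to 0.908 of the depth of S1 replicate 1. Entries were kept at a minimum of 1 FPKM in 3 or more of 12 libraries, transformed to log2(FPKM + 1), and fitted with limma 3.58.1 (R 4.3.3) as 4 group means with a trended prior, two-sided, with Benjamini-Hochberg adjustment over 27272 entries. Log2 differences understate changes of low genes. The method was tested on simulated data with independent noise for each gene. Shifts shared by many genes of a library were not simulated, so the simulation does not cover them. "No overlap" means that all 3 margin libraries lay on the same side of all 3 center libraries. The members, classes and lists were chosen with earlier results of these data known.

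Genes were named by rule: the 12 largest differences in each direction among annotated genes without overlap, with an unadjusted p under 0.05 and a mean in the higher zone of 5 FPKM or more, up to 4 members without overlap at that level and the most abundant member per described class, the 5 largest in each direction without margin replicate 3, and the anthocyanin regulators and cell type markers. Class membership overlaps between some classes. Of the tested entries 774 name several genes, and reads of near-identical copies may be split. Where several entries carry a name, the values are those of the entry the rule chose. Scripts used Python 3.11.15, pandas 2.3.3 and matplotlib 3.10.9.

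Replicate numbers may pair the zones. Deviations from the zone means correlated at 0.268, 0.195 and 0.158 for libraries of the same number, above the set threshold of 0.1. They correlated at -0.243 to 0.0129 for others. With 3 libraries a zone these values are not independent. Across genes, margin replicate 2 correlated at 0.910 with center replicate 3 and at 0.822 with center replicate 2. The possible pairing comes from the data, not the labels. Alternatives were a pseudocount of 0.1, other filters, median-of-ratios scaling, the 6 S3 libraries alone, the replicate block and leaving out each library.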

Additional observations from a re-analysis of the deposited data

How the results depend on the processing

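Of comparisons of a named gene with an alternative, 2607 kept direction and call, 20 changed sign and 3 passed the threshold. Of class medians under an alternative, 957 moved by less than the spread between replicates and 77 by more. The cause of the others was not tested beyond what each setting leaves out. At an adjusted p under 0.05, where the deposited scale gave 0 in each direction, a pseudocount of 0.1 gave 1 higher and 1 lower, no filter gave 3 lower, and the 6 S3 libraries alone gave 1 higher and 2 lower. Leaving out a library gave 0 to 2 lower, the 2 without center replicate 1. At an unadjusted p under 0.05, no filter gave 1324 lower and a filter of 5 FPKM gave 449. Median-of-ratios scaling gave 1269 higher and 1455 lower, and 824 higher when margin replicate 3 was also left out, an alternative chosen after seeing the data. Leaving out a library gave 371 to 4322 higher and 301 to 1188 lower, with 3110 and 1188 without S1 replicate 1, 1257 higher without margin replicate 2 and 1081 higher without center replicate 1. Genes without overlap numbered 2000 higher and 827 lower under the filter of 5 FPKM, 2297 lower when scaled, 3382 lower when scaled without margin replicate 3, and 4883 higher without S1 replicate 1 and margin replicate 3 (added after seeing the data). Leaving out a library gave 3109 to 9520 higher and 1292 to 2858 lower, since fewer libraries overlap less often.

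With the replicate block in the 6 S3 libraries, 2865 genes were higher and 1274 lower at an unadjusted p under 0.05, 0 passed after adjustment and the smallest adjusted p was 0.0582. With the block in all 12 libraries, 1882 and 718 did, and the smallest adjusted p was 0.489. The calls of Bo5g050740, Bo5g050750 and Bo9g065530 in the 6 S3 libraries alone were lost with the block (adjusted p = 0.0582 by limma).

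Of the genes named by rule, 9 abundant genes with overlapping zones changed sign in some alternative. TT7, named outside the rule, changed from 0.57 to -0.40 without margin replicate 3. When scaled, Bo7g117020 was at -0.077 and Bo7g114380 at -0.062. Bo8g077260 was at -0.25 when scaled without margin replicate 3, and at -0.042 without S1 replicate 1 and margin replicate 3. Over the fits that leave out a library, log2 differences ranged from -0.042 to 0.61 for Bo8g077260, -0.092 to 0.31 for Bo7g117020, -0.88 to 1.08 for Bo7g114380, -0.77 to 0.025 for Bo4g101180 and -1.15 to 0.19 for Bo4g137150;Bo4g137140;Bo4g137200. They ranged from -0.29 to 0.069 for Bo2g127040, -0.17 to 0.65 for Bo5g093110, -0.86 to 0.39 for ATFER1 and -3.64 to 0.38 for Bo5g155090. Without counts, the precision that depth gives to each value is unknown.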

Other observations

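Among 374 gene ontology terms with at least 20 tested genes, the terms below were chosen after their values were seen. Tubulins, annotated as structural parts of the cytoskeleton, were higher in the margin without overlap in 12 of 24 genes (50.0%, against 11.9% of all genes), and in 0 lower. Their median log2 difference was 1.05, 0.81 without margin replicate 3, and 11 were higher and 0 lower when scaled. The beta-tubulin Bo7g067360 had 39.0, 54.2 and 77.1 FPKM in the margin and 22.4, 9.34 and 31.0 in the center. Bo3g116270, another beta-tubulin, had 3.45, 3.31 and 22.8 FPKM against 2.37, 0.489 and 2.03. The alpha-tubulin Bo9g152500 had 19.9, 26.6 and 85.7 FPKM against 12.1, 7.95 and 19.5, and it may share reads with a near-identical neighbor. For the latter pair margin replicate 3 stood far above the other margin libraries.

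Transporters of the DETOXIFICATION family, which move small organic compounds across membranes in exchange for protons, were lower in the margin without overlap in 10 of 38 genes (26.3%, against 4.85% of all genes) and higher in 3. Their median was -0.39, -0.38 without margin replicate 3, and 11 were lower and 2 higher when scaled. Bo7g110470 had 7.01, 6.92 and 7.19 FPKM in the margin and 23.5, 67.0 and 24.4 in the center, a 5.44-fold higher center mean. Bo8g050940 had 21.2, 19.3 and 17.3 FPKM against 28.9, 41.8 and 150, and Bo1g016090 had 0.739, 0.798 and 0.584 against 5.75, 21.4 and 0.842. The entry Bo1g025740;Bo1g025750 had 0.211, 0 and 0.172 FPKM against 0.806, 51.1 and 1.48. Center replicate 2 was the highest library in 3 of these 4 entries and center replicate 3 in the other.

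An entry with no gene name or description, MSTRG.26744, had 15.6, 83.1 and 26.0 FPKM in the center and 0.780, 0.242 and 0.191 in the margin, with 0.555 to 5.89 in S1 and S2. Its adjusted p by limma was 0.0274 with a pseudocount of 0.1 and 0.0222 without center replicate 1. Bo9g065530, also without a description, was listed at 0 in the center and had 26.6, 32.3 and 34.7 FPKM in the margin, with an adjusted p of 0.00263 by limma in the 6 S3 libraries alone. It was also listed at 0 in 3 of the 6 whole-leaf libraries. Bo8g094890 had 178 and 109 FPKM in center replicates 2 and 3, and 1.90 in center replicate 1, below the 2.07 to 5.35 of the other 9 libraries. Its adjusted p by limma was 0.00116 without center replicate 1 and 0.311 with the replicate block in the 6 S3 libraries, which gave 0.279 for MSTRG.26744 and 0.0582 for Bo9g065530.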
